A study of Homo sapiens with 18 samples.

Results

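The genes described here are 10 that serve the presentation of peptides by major histocompatibility complex (MHC) class I molecules: B2M, HLA-F, TAP1, TAP2, TAPBP, PSMB8, PSMB9, PSMB10, ERAP1 and NLRC5. They were chosen by function, as the rows of the gene table for the class I light chain, the immunoproteasome, the transport and loading of peptides and the class I transactivator, with HLA-F as the heavy chain. All 10 were found among the 30727 genes of the table and all 10 were among the 17641 tested. HLA-F, TAP1, TAP2, TAPBP, PSMB8 and PSMB9 lie on chromosome 6, PSMB10 and NLRC5 on chromosome 16, B2M on chromosome 15 and ERAP1 on chromosome 5. HLA-B and HLA-E were not analysed here.

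RNA was sequenced from PC9, an established line of human lung adenocarcinoma that carries an activating EGFR mutation, in 18 libraries that form 6 groups of 3. Parental cells with the solvent DMSO (parental_DMSO) were the reference. Parental cells were also given 1 µM of the EGFR inhibitor erlotinib for 24 hours (erlotinib_24h), 50 µM of the platinum compound carboplatin for 72 hours with the drug renewed daily (carboplatin_72h), or 50 nM of trichostatin A (TSA), an inhibitor of histone deacetylases, for 5 hours (parental_TSA). Drug-tolerant persisters (DTP) are the cells that survived 8 days of 1 µM erlotinib, and a further group of them received 50 nM TSA for 5 hours (DTP_TSA). The treatment text of the persister libraries also speaks of cells sorted for ALDH, and no title says to which libraries that applies. The labels do not say that the 3 libraries of a group came from separate cultures, so p-values measure the spread between these libraries, which may be technical.

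Class I molecules show the inside of a cell to cytotoxic T cells. The proteasome cuts proteins into peptides, the TAP1 and TAP2 pump moves them into the endoplasmic reticulum, tapasin (TAPBP) holds the empty class I molecule beside the pump, ERAP1 trims the peptides to length, and B2M is the light chain that every classical class I heavy chain needs to reach the surface. PSMB8, PSMB9 and PSMB10 are catalytic subunits that replace PSMB5, PSMB6 and PSMB7 when the immunoproteasome is built. Interferons raise most of these genes through an interferon-stimulated response element (ISRE) and a gamma-activated sequence (GAS) in their promoters, and NLRC5 is the coactivator that works at class I promoters.

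The promoters are shown for 5 genes around which the results turn: TAP1 and PSMB9, which lie head to head and were both higher in every other group, TAP2, whose pattern was apart from the others, and B2M and TAPBP. Each run is 5′ to 3′ on the strand of its gene, from 250 bases before the start to 50 bases from it, as RefSeq gives it on GRCh38.p14, and capitals mark matches to the ISRE letters GAAANNGAAA on either strand. The windows are chr6:32853655-32853954 on the minus strand for TAP1, chr6:32853942-32854241 on the plus strand for PSMB9, chr6:32838690-32838989 on the minus strand for TAP2, chr6:33314029-33314328 on the minus strand for TAPBP and chr15:44711267-44711566 on the plus strand for B2M.
TAP1: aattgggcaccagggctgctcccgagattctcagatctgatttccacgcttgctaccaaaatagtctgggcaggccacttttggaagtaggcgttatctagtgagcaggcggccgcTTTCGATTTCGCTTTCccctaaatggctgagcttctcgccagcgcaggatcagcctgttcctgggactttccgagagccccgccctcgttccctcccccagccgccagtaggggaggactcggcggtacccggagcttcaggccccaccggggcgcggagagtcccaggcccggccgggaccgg
PSMB9: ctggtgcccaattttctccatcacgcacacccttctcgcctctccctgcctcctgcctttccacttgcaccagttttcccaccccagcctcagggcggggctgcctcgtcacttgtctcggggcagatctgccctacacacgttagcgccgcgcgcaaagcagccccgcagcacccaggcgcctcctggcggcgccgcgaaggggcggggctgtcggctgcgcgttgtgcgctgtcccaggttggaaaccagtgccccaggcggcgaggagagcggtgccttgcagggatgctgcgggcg
TAP2: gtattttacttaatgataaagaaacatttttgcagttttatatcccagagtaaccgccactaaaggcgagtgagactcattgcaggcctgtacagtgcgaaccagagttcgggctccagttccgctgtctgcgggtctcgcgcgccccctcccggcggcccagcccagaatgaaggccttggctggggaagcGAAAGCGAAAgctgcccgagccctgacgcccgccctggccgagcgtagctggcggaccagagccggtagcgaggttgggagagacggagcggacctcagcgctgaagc
TAPBP: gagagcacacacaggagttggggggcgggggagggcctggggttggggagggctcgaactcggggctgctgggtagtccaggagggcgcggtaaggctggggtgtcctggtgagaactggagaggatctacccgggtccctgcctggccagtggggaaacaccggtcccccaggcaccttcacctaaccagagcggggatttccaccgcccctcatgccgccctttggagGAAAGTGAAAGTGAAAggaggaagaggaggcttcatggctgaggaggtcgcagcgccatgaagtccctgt
B2M: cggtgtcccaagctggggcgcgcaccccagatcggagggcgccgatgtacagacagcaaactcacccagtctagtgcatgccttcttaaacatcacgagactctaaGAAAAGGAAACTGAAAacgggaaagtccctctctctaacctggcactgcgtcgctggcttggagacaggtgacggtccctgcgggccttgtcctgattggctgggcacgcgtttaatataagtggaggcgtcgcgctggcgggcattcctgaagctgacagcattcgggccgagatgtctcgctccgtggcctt

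RefSeq windows were found for 9 of the 10 genes, 12 windows in all because 3 genes have 2, and NLRC5 had no entry. The ISRE letters were present in 8 of the 12 windows and in 8 of the 9 genes, the exception being PSMB9, and in 3.57% of the 35116 promoter windows of all genes. In B2M, TAP1 and TAPBP a pair of matches overlap by 4 bases, so that the capitals run on. The TAP1 run lies between bases -134 and -119 of its start, counted so that the base before the start is -1. The same run lies 354 to 369 bases before the start of PSMB9, outside the window of PSMB9, since 488 bases separate both starts. TAP2 carries a single match between -58 and -49, and TAPBP a run between -20 and -5. The GAS letters TTCNNNGAA were found in 2 of the 12 windows, the second of TAP1 and of PSMB8, against 7.66% of all windows. The letters CCAAT were found in 5 of the 12 windows, those of 5 genes (B2M, HLA-F, TAP1, PSMB9 and ERAP1), against 34.6% of all windows. These are matches of letters on both strands and no measure of binding.

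Libraries held 32139343 to 128293531 gene reads, and the 10 genes had between 105 and 107777 reads each per library. Levels are CPM, counts scaled to a common total of gene reads, with library sizes scaled by TMM. In DTP_TSA replicate a, spike-in reads stood at 99.9 per 100 gene reads, against 0.321 to 0.786 in the other 17 libraries, and it correlated with its nearest fellow replicate at 0.939. For parental_TSA replicate a this value was 0.985, against 0.993 to 0.995 in the others. Log2 fold changes of the 10 genes under TSA are therefore given with and without both of these libraries, and those of other genes with them. The ERCC spike-in RNA had been added by cell number, and scaling to it moved the median log2 fold change of all genes. In DTP it was 0.16 in place of 0.06, in erlotinib_24h -0.23 in place of 0.11, in carboplatin_72h 0.72 in place of 0.06, in DTP_TSA against DTP 0.11 in place of -0.08 and in DTP against erlotinib_24h 0.48 in place of 0.03. The epithelial markers summed to 3989 to 8468 CPM and none of the 6 was at 0. Of 10 blood cell markers, PTPRC had at most 8 reads in a library and none in parental_DMSO, MS4A1 had at most 18, CD3E 15 and NKG7 1, and the sum of 25.6 to 77.6 CPM was led by CD68 in every group.

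**Figure D1:**
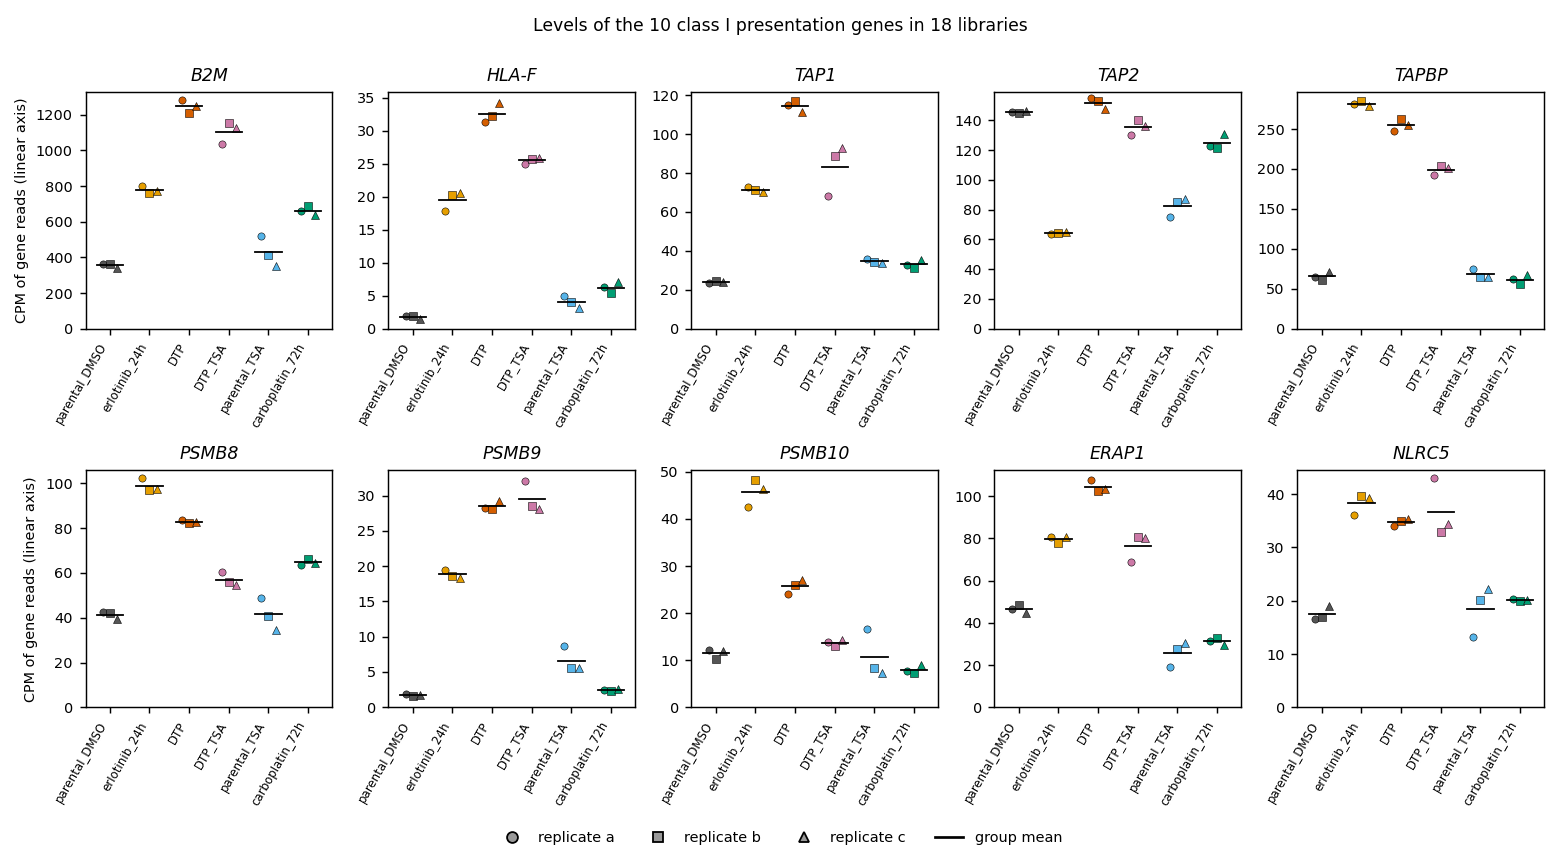
Level of each of the 10 genes in CPM of gene reads on a linear axis that starts at 0 (y) in the 6 groups (x), with 1 point per library, its shape giving the replicate letter, and a bar for the group mean. For 9 of the 10 genes the 3 DTP and the 3 erlotinib_24h libraries all lie above the 3 parental_DMSO libraries, and TAP2 is lowest after 24 hours of erlotinib, at 63.5 to 65.1 CPM. The share of all genes that separate in this way is not given here. By the test, 31% of all tested genes were higher in DTP and 36.6% at 24 hours.

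The comparison of persisters with parental cells asked how the surviving population differs from the one it came from. Here 9 of the 10 genes were higher in DTP and none was lower, while 31% of all tested genes were higher and 27.8% lower. The median log2 fold change of the 10 was 1.49, beside 0.06 over all genes. TAP2, the partner of TAP1 in the peptide pump, was the exception.

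B2M, the light chain, had 364, 360.4 and 342 CPM in parental_DMSO and 1282, 1208 and 1251 CPM in DTP. No DTP library came near a parental one, and the log2 fold change was 1.81 ± 0.10 (SE; adjusted p = 8.44e-11), or 3.51-fold. HLA-F, a heavy chain of the non-classical kind, went from 1.96, 1.99 and 1.45 CPM to 31.3, 32.3 and 34.3 CPM. Reads of HLA genes can be shared between near-identical copies, so the level of HLA-F is uncertain in a way that its 4.18 ± 0.16 (adjusted p = 8.38e-13) does not show. HLA-C, a classical heavy chain, had 106, 96.5 and 106 CPM in parental_DMSO and 483, 493 and 490.0 CPM in DTP, and rose by 2.25 ± 0.13 (adjusted p = 1.05e-10).

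TAP1 had 23.3, 24.3 and 24.0 CPM in parental_DMSO and 115, 117 and 111 CPM in DTP. Its partner TAP2 had 146, 145 and 146 CPM in parental_DMSO and 155, 153 and 148 CPM in DTP. The pump's subunits thus differed: TAP1 rose by 2.26 ± 0.09 (adjusted p = 1.53e-12), and TAP2 gave 0.06 ± 0.06 (adjusted p = 0.388), with groups that did not overlap; in a fit of these groups alone TAP2 passed (0.07, adjusted p = 0.0407). Tapasin, which ties the pump to class I molecules, had 64.3, 61.1 and 71.0 CPM in parental_DMSO and 247, 263 and 256 CPM in DTP. TAPBP rose by 1.96 ± 0.07 (adjusted p = 6.4e-13). Its relative TAPBPL, which edits peptides on class I molecules, rose by 2.35 ± 0.12 (adjusted p = 2.74e-11).

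PSMB9 had 1.84, 1.59 and 1.67 CPM in parental_DMSO and 28.2, 28.1 and 29.3 CPM in DTP. That is a 16.8-fold difference between groups far apart (4.07 ± 0.15, adjusted p = 6.21e-13). The other immunoproteasome subunits moved less. PSMB8 had 42.6, 42.2 and 39.4 CPM in parental_DMSO and 83.6, 82.4 and 82.7 CPM in DTP (1.00 ± 0.09, adjusted p = 4.39e-08). PSMB10 had 12.2, 10.3 and 12.0 CPM in parental_DMSO and 24.0, 26.1 and 27.1 CPM in DTP (1.16 ± 0.21, adjusted p = 0.000131). In both genes every DTP library was above every parental one.

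ERAP1, the trimming peptidase, had 46.4, 48.3 and 44.8 CPM in parental_DMSO and 108, 103 and 103 CPM in DTP (1.17 ± 0.12, adjusted p = 2.34e-07). NLRC5 had 16.5, 16.95 and 19.0 CPM in parental_DMSO and 34.1, 34.9 and 35.3 CPM in DTP (0.99 ± 0.14, adjusted p = 1.29e-05). Both rose about as much as PSMB8, and less than the light chain or TAP1. Scaling to the spike-in left all 9 genes higher in DTP, beside 31.1% of all genes tested under that scaling.

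After 24 hours of erlotinib, the comparison that shows the early response, 9 of the 10 genes were higher than in parental_DMSO and 1, TAP2, was lower. Of all tested genes, 36.6% were higher and 32.7% lower. The median log2 fold change of the 10 was 1.42, beside 0.11 over all genes. DTP and erlotinib_24h were compared with the same 3 parental libraries, so their values stand side by side and their likeness is no separate evidence.

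TAPBP reached 281, 285 and 278 CPM at 24 hours, higher than in any other library of the series (2.11 ± 0.07, adjusted p = 1.07e-13). PSMB10 reached 42.4, 48.3 and 46.4 CPM (1.99 ± 0.21, adjusted p = 2.34e-07), and PSMB8 reached 103, 97.3 and 97.4 CPM (1.26 ± 0.09, adjusted p = 1.27e-09). For these 3 genes every library at 24 hours was above every DTP library. PSMB9 had 19.4, 18.7 and 18.4 CPM (3.47 ± 0.15, adjusted p = 1.5e-12) and HLA-F 17.8, 20.2 and 20.6 CPM (3.44 ± 0.16, adjusted p = 3.06e-12). Both stood between the parental and the persister levels, without overlap on either side.

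B2M had 798, 761 and 772 CPM at 24 hours (1.13 ± 0.10, adjusted p = 1.57e-08), and TAP1 73.1, 71.2 and 70.3 CPM (1.58 ± 0.09, adjusted p = 5.38e-11). NLRC5 had 36.0, 39.6 and 39.2 CPM (1.13 ± 0.14, adjusted p = 1.94e-06). ERAP1 had 80.7, 77.8 and 80.6 CPM (0.78 ± 0.12, adjusted p = 1.72e-05), and this call was lost with scaling to the spike-in (0.42, adjusted p = 0.138). TAP2 had 63.5, 64.5 and 65.1 CPM, less than in any other group, and fell by 1.18 ± 0.06 on the log2 scale (adjusted p = 6.14e-12). It fell by 1.54 when scaled to the spike-in.

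**Figure D2:**
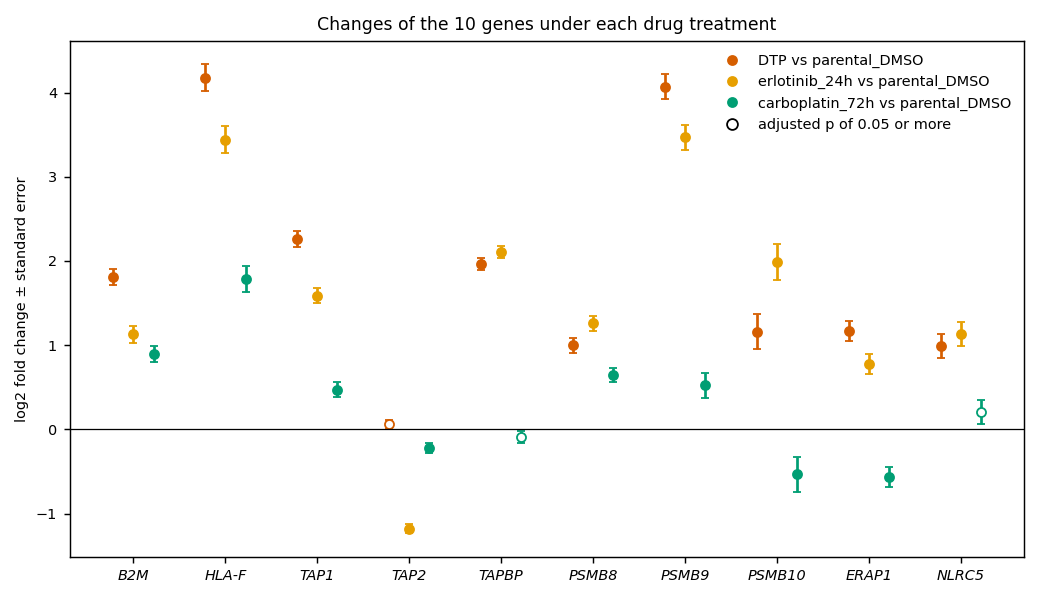
Log2 fold change against parental_DMSO with its standard error (y) for each of the 10 genes (x) in DTP, erlotinib_24h and carboplatin_72h, 3 libraries per group. Filled points passed an adjusted p of 0.05 and open points did not. HLA-F and PSMB9 changed most under erlotinib, with 4.18 and 4.07 in DTP, and with TMM scaling, as drawn, the 5 genes that rose after carboplatin have smaller values there than under erlotinib. Scaled to the spike-in, the carboplatin values of TAP2, TAPBP, PSMB10 and ERAP1 lie above 0, and those of PSMB8 (1.30) and B2M (1.55) lie above their values at 24 hours (0.90 and 0.77).

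The direct comparison of DTP with erlotinib_24h asked what differs between 8 days and 24 hours of the same drug. Of the 10 genes, 6 were higher in DTP and 2 were lower, while 30.5% of all tested genes were higher and 24.8% lower. The split was 6 higher and 1 lower under spike-in scaling, beside 47% and 11.2% of all genes tested under it. TAP2 differed most, with 2.36-fold more in DTP (1.24 ± 0.06, adjusted p = 9.67e-12). HLA-F (0.74 ± 0.14), B2M (0.68 ± 0.10), TAP1 (0.68 ± 0.09), PSMB9 (0.60 ± 0.13) and ERAP1 (0.39 ± 0.12) were also higher, with adjusted p between 3.75e-06 and 0.00905.

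PSMB10 was lower in DTP than at 24 hours by -0.83 ± 0.20 (adjusted p = 0.00228). PSMB8 was lower by -0.26 ± 0.09 (adjusted p = 0.0201), a call that was lost without DTP replicate b (adjusted p = 0.0571), without DTP replicate c (0.055) or without erlotinib_24h replicate a (0.0784), and that turned to 0.20 (adjusted p = 0.225) with scaling to the spike-in. TAPBP (-0.14 ± 0.07, adjusted p = 0.0995) and NLRC5 (-0.14 ± 0.14, adjusted p = 0.424) did not pass. Both passed in a fit of these groups alone (adjusted p = 7.07e-06 and 0.000396) and without both TSA replicates a (0.0279 and 0.0308), and TAPBP also with DESeq2 (-0.18, adjusted p = 0.0278), with its size factors (0.0403), with the filter of 1 CPM (0.0199) and without parental_TSA replicate a (0.0466). By CPM with TMM scaling over all 6 groups, DTP was highest without overlap for B2M, HLA-F, TAP1, TAP2 and ERAP1. For TAPBP, PSMB8 and PSMB10 it was erlotinib_24h, although with scaling to the spike-in TAPBP (0.31) and PSMB8 (0.20) had higher values in DTP than at 24 hours, neither past the threshold. Under that scaling the carboplatin values against parental_DMSO also exceeded those of DTP for TAP2 (0.42 against 0.15) and PSMB8 (1.30 against 1.09), differences that were not tested. For PSMB9 and NLRC5 the highest group overlapped with the next. The share of all genes with a highest group free of overlap is not given here.

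Carboplatin, a drug with another target, gave a mixed picture. Of the 10 genes, 5 were higher and 3 lower than in parental_DMSO, beside 30.3% and 28.6% of all tested genes. Scaled to the spike-in, 8 were higher and none lower, beside 58.7% and 6.7% of all genes tested under that scaling. The median of the 10 was 0.34 with TMM scaling, beside 0.06 over all genes, and 0.98 with the spike-in, beside 0.72.

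HLA-F had 6.27, 5.37 and 7.01 CPM after carboplatin (1.79 ± 0.15, adjusted p = 2.92e-08) and B2M had 662, 690.1 and 635 CPM (0.90 ± 0.10, adjusted p = 5.13e-07). PSMB8 had 63.6, 66.5 and 64.4 CPM (0.65 ± 0.09, adjusted p = 8.71e-06). By CPM these 3 lay clear of the parental libraries and below the DTP libraries, an order that turned for PSMB8 with scaling to the spike-in (1.30 after carboplatin, 1.09 in DTP). TAP1 had 32.6, 31.2 and 35.4 CPM (0.47 ± 0.09, adjusted p = 0.000207) and PSMB9 2.48, 2.32 and 2.54 CPM (0.53 ± 0.15, adjusted p = 0.00627). Both rose, and by CPM in every carboplatin library both stood below every library given erlotinib.

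The 3 lower genes after carboplatin were ERAP1, with 31.6, 33.03 and 29.7 CPM (-0.56 ± 0.12, adjusted p = 0.000638), PSMB10, with 7.73, 7.17 and 8.93 CPM (-0.53 ± 0.21, adjusted p = 0.038), and TAP2, with 123, 121 and 131 CPM (-0.22 ± 0.06, adjusted p = 0.00239). With scaling to the spike-in the values turned to 0.09 for ERAP1, 0.10 for PSMB10 and 0.42 for TAP2, and TAPBP turned from -0.09 (adjusted p = 0.284) to 0.55. The call of PSMB10 was also lost without any of 4 single libraries, with adjusted p from 0.0803 to 0.0972. NLRC5 had 20.4, 19.9 and 20.2 CPM (0.20 ± 0.14, adjusted p = 0.23). It passed with both TSA replicates a left out of the fit (0.20, adjusted p = 0.00416), in a fit of these groups alone (0.22, adjusted p = 0.0101) and with scaling to the spike-in (0.85, adjusted p = 0.00587).

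The immunoproteasome subunits were then set against the constitutive subunits that they replace, as reads per 100 reads within each library, a measure that no scaling between libraries changes. PSMB9 stood at 0.645 to 0.722 reads per 100 reads of PSMB6 in parental_DMSO and at 14.1 to 15.1 in DTP. After 24 hours of erlotinib it stood at 9.75 to 9.87. PSMB8 per 100 reads of PSMB5 went from 25.1 to 26.0 in parental_DMSO to 68.0 to 70.5 in DTP and 104 to 112 at 24 hours. PSMB10 per 100 reads of PSMB7 went from 3.38 to 4.12 in parental_DMSO to 10.4 to 11.7 in DTP and 21.1 to 25.0 at 24 hours.

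The mean ratios in DTP were 21.1-fold, 2.7-fold and 2.94-fold those of parental_DMSO, in the order PSMB9, PSMB8 and PSMB10, and at 24 hours 14.2-fold, 4.2-fold and 6.17-fold, without overlap with the parental libraries. For a single ratio 3 libraries against 3 cannot give less than p = 0.1 in the 2-sided exact permutation test, and these 6 comparisons gave that value (0.112 adjusted over 18 comparisons), so no call can be made from it. The order of both erlotinib groups differed between subunits: PSMB9 was higher in DTP by 1.48-fold, while PSMB8 and PSMB10 stood at 0.642 and 0.477 of their ratio at 24 hours. After carboplatin the ratios were 0.861 to 0.930 for PSMB9, 36.2 to 37.2 for PSMB8 and 2.44 to 3.20 for PSMB10. The first 2 were above and the last was below all parental libraries. TSA left a ratio of PSMB9 of 2.10 to 2.33 in parental cells and of 18.9 to 21.6 in persisters, each above its untreated group without overlap (exact permutation p = 0.1, the smallest possible). The 21.6 was replicate a, and b and c stood at 18.9 and 19.8. In persisters PSMB6 fell by 0.41 on the log2 scale under TSA (adjusted p = 0.00377), from a mean of 196 to 147 CPM, while PSMB9 gave 0.05. The ratio of PSMB10 went the other way in persisters, to 6.67 to 7.88 or 0.658-fold, without overlap (exact permutation p = 0.1).

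**Figure D3:**
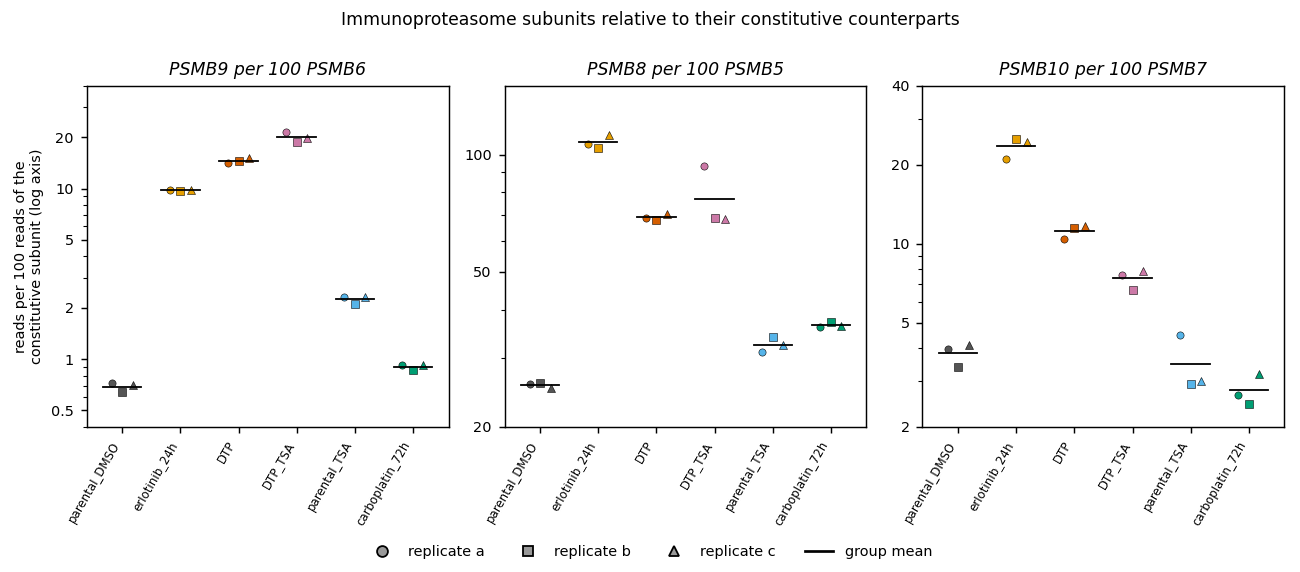
Reads of PSMB9, PSMB8 and PSMB10 per 100 reads of PSMB6, PSMB5 and PSMB7 on log axes (y) in the 6 groups (x), with 1 point per library and a bar for the group mean. PSMB9 stands at 0.645 to 0.722 in parental_DMSO and at 14.1 to 15.1 in DTP, while PSMB8 and PSMB10 peak at 24 hours of erlotinib.

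The constitutive subunits in these ratios also differed between groups. Of the 14 constitutive 20S proteasome genes, none was higher and 13 were lower in DTP, beside 31% and 27.8% of all tested genes. Their median was -0.38, beside 0.06 over all genes. Under spike-in scaling 6 of the 14 were lower, beside 17.8% of all genes. PSMB5 fell by 0.43, PSMB6 by 0.33 and PSMB7 by 0.40 on the log2 scale, with adjusted p of 0.0024, 0.0152 and 0.00198, and PSMB6 did not pass with scaling to the spike-in (adjusted p = 0.103). At 24 hours all 14 were lower under both scalings, with a median of -0.70, or -1.06 with the spike-in. Over all genes 32.7% were lower with a median of 0.11, or 39.8% and -0.23 with the spike-in. After carboplatin 6 were lower and none higher, beside 28.6% and 30.3% of all tested genes. With scaling to the spike-in 13 were higher and none lower, beside 58.7% and 6.7% of all genes. Their median was then 0.58, beside 0.72 over all genes.

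TAP1 and TAP2 were compared in the same way, as TAP1 reads per 100 TAP2 reads, without a test. The mean was 16.4 ± 0.4 (SD, n = 3) in parental_DMSO, 75.3 ± 1.1 in DTP and 111 ± 4 after 24 hours of erlotinib. At 24 hours TAP1 was higher and TAP2 lower, and in DTP TAP1 alone was higher. The mean was 26.4 ± 0.7 after carboplatin, 42.4 ± 5.0 in parental_TSA and 61.3 ± 8.1 in DTP_TSA. Replicate a stood apart in both TSA groups, at 48.1 against 40.3 and 38.8 in parental_TSA and at 52.3 against 63.5 and 68.1 in DTP_TSA.

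TSA in parental cells asked whether inhibition of histone deacetylases alone moves these genes. Of the 10, 4 were higher and 2 lower, beside 30.8% and 27.4% of all tested genes. With both replicates a left out, 4 were higher and 4 lower, beside 36.4% and 32.9% of all genes tested in that setting. The median of the 10 was 0.07, beside 0.06 over all genes.

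PSMB9 had 8.70, 5.63 and 5.51 CPM in parental_TSA, each above all parental_DMSO libraries (1.95 ± 0.15, adjusted p = 6.52e-09, and 1.71 without both replicates a). HLA-F had 4.93, 4.07 and 3.21 CPM (1.17 ± 0.15, adjusted p = 5.21e-06, and 1.01 without them). TAP1 had 36.1, 34.4 and 33.7 CPM (0.54 ± 0.09, adjusted p = 5.14e-05, and 0.51 without them). B2M had 519, 414 and 352 CPM, the last within the range of parental_DMSO, and its 0.27 ± 0.10 (adjusted p = 0.0243) was lost without both replicates a (0.11, adjusted p = 0.0824), without parental_TSA replicate a alone (0.10, adjusted p = 0.182) and without parental_DMSO replicate c (0.24, adjusted p = 0.082).

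TAP2 fell to 74.9, 85.2 and 87.0 CPM (-0.82 ± 0.06, adjusted p = 2.15e-09, and -0.76 without both replicates a). ERAP1 fell to 19.0, 27.9 and 30.5 CPM (-0.85 ± 0.12, adjusted p = 1.19e-05, and -0.67 without them). TAPBP (0.05), PSMB8 (0.00), PSMB10 (-0.11) and NLRC5 (0.09) did not pass, with adjusted p between 0.534 and 1. Of these 4, 3 passed without both replicates a, and TAPBP did not (-0.01, adjusted p = 0.866). PSMB10 had 16.6 CPM in replicate a and 8.29 and 7.38 CPM in b and c, and without both replicates a it was called lower (-0.56, adjusted p = 5.97e-05). NLRC5 had 13.1 CPM in replicate a and 20.2 and 22.2 CPM in b and c, and became higher (0.28, adjusted p = 0.000595). PSMB8 turned to -0.13 without both (adjusted p = 0.0412). With each library left out in turn, the adjusted p of PSMB8 was never below 0.0715.

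In persisters, none of the 10 was higher in DTP_TSA than in DTP and 7 were lower, beside 25.6% and 30.7% of all tested genes. Without both replicates a, none was higher and 8 were lower, the eighth being B2M, beside 32.9% and 37.4% of all genes. Scaled to the spike-in, none was higher and 2 were lower, beside 24.6% and 14.3% of all genes. The 2 were PSMB8 (-0.44, adjusted p = 0.0282) and PSMB10 (-0.78, adjusted p = 0.000684).

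PSMB10 had 13.8, 12.9 and 14.2 CPM in DTP_TSA, against 24.0 to 27.1 CPM in DTP (-0.91 ± 0.21, adjusted p = 0.00124, and -0.93 without both replicates a). PSMB8 had 60.7, 55.8 and 54.6 CPM (-0.54 ± 0.09, adjusted p = 5.82e-05, and -0.59 without them). In both genes every DTP_TSA library lay below every DTP library and above every parental_DMSO library. The ratio of PSMB8 to PSMB5 overlapped between DTP_TSA, at 68.5 to 93.7 per 100, and DTP (exact permutation p = 0.6), and PSMB5 itself fell by 0.67 on the log2 scale. The 93.7 was replicate a, and b and c stood at 68.8 and 68.5. TAP1 had 68.0, 89.0 and 92.6 CPM (-0.46 ± 0.09, adjusted p = 0.000237), with replicate a lowest, and -0.34 without both replicates a.

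ERAP1 was lower by -0.45 ± 0.12 (adjusted p = 0.00373, and -0.39 without both replicates a) and TAPBP by -0.36 ± 0.07 (adjusted p = 0.000366, and -0.34 without them). HLA-F (-0.35 ± 0.13, adjusted p = 0.0337, and -0.34 without them) and TAP2 (-0.16 ± 0.06, adjusted p = 0.0182, and -0.14 without them) passed more narrowly. HLA-F lost its call without DTP replicate b or c or any 1 DTP_TSA library (adjusted p from 0.0524 to 0.0955), and TAP2 without DTP replicate a (0.0533) or DTP_TSA replicate a (0.0501). Both calls were also lost with DESeq2's size factors in edgeR (0.0725 for HLA-F, 0.0539 for TAP2) and with the filter of 1 CPM (0.125 and 0.25). TAP2 lost its call in a fit of the compared groups alone too (0.0521). With scaling to the spike-in TAP1, TAPBP, ERAP1 and HLA-F kept their direction and did not pass, and TAP2 turned to 0.01. PSMB9 had 32.1, 28.5 and 28.1 CPM, within or just above the DTP range (0.05 ± 0.13, adjusted p = 0.763, and -0.02 without both replicates a). NLRC5 gave 0.08 (adjusted p = 0.659) and -0.05 without them (adjusted p = 0.435). B2M gave -0.17 (adjusted p = 0.133), and it passed as lower without both replicates a (-0.14, adjusted p = 0.0303), without parental_TSA replicate a (-0.18, adjusted p = 0.00908) or c (-0.18, adjusted p = 0.0324), and in a fit of the compared groups alone (-0.10, adjusted p = 0.0484). With scaling to the spike-in B2M stood at 0.01 (adjusted p = 0.958).

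The difference between both TSA effects was tested as an interaction. It was past the threshold and negative for 7 genes, and past it and positive for 1, beside 23% and 15.3% of all tested genes. PSMB9 (-1.90 ± 0.19, adjusted p = 1.3e-06), HLA-F (-1.52 ± 0.20, adjusted p = 2.32e-05) and TAP1 (-0.998 ± 0.12, adjusted p = 1.02e-05) had the most negative values. The same 3 also passed with scaling to the spike-in, where none of the 10 passed with a positive value. Under that scaling 9.02% of all genes passed with a negative and 6% with a positive value. PSMB9, HLA-F and TAP1 are 3 of the 4 genes that TSA raised in parental cells. The interaction subtracts that rise, so this is no separate evidence. TAP2 had the positive value (0.66 ± 0.08, adjusted p = 7.35e-06): it fell under TSA by 0.82 in parental cells and by 0.16 in persisters on the log2 scale. With scaling to the spike-in its value was 0.80 and did not pass (adjusted p = 0.0529). ERAP1 (0.40 ± 0.17, adjusted p = 0.0699) and NLRC5 (-0.01 ± 0.20, adjusted p = 0.975) did not pass, and both passed without both replicates a (0.28, adjusted p = 0.00191, and -0.34, adjusted p = 0.00339).

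**Figure D4:**
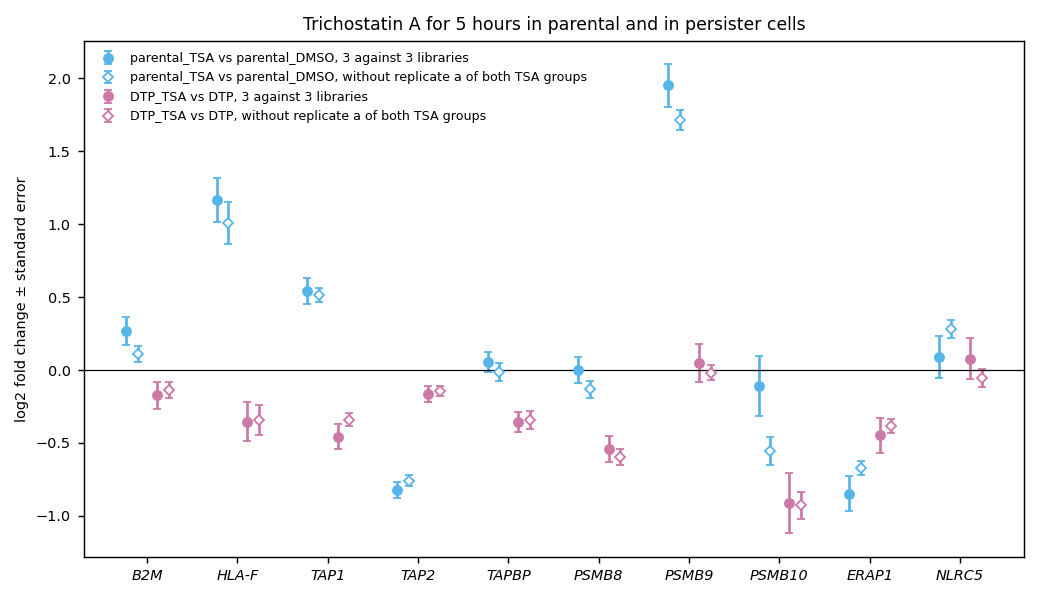
Log2 fold change under 5 hours of TSA with its standard error (y) for each of the 10 genes (x) in parental cells and in persisters, with all 3 libraries per group (circles) and without replicate a of both TSA groups (diamonds). PSMB9, HLA-F and TAP1 are above 0 in parental cells, while in persisters PSMB9 is near 0 and HLA-F and TAP1 are below 0; with scaling to the spike-in, TAP2 in persisters lies at 0.01.

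Across the 18 libraries the genes varied together to different degrees, and these correlations describe 6 groups rather than 18 independent points. Among the 45 pairs of the 10 genes the median Pearson r of log2 CPM was 0.759, 6 pairs were negative and 18 were above 0.8. TAP1 (r = 0.959), TAPBP (0.954) and HLA-F (0.946) lay nearest the mean of the other 9 genes. PSMB8 (0.738) and PSMB10 (0.682) lay farther off, and TAP2 stood at -0.0892. The rule for likeness, the 10 genes outside the list with the highest r with the mean of the 10, gave MAGED2 (r = 0.996), TNFRSF14 (0.989), MAGED1, BMP1, CST5, CCDC80, IGFBP5, SLC7A7, APOL1 and PARP9 (0.984). MAGED2 had a mean of 48.5 CPM in parental_DMSO, 177 at 24 hours of erlotinib, 245 in DTP and 65.3 after carboplatin. APOL1 had 1.26, 25.5, 33.7 and 3.97 CPM in the same groups. Without DTP_TSA replicate a, PARP9 ranked 11 and the other 9 stayed among the first 10.

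The rest of the class I pathway did not move as a block. Of 24 further genes, 12 were higher and 8 lower in DTP with a median of 0.10, beside 31% and 27.8% of all tested genes. At 24 hours 9 were higher and 11 lower with a median of -0.20, beside 36.6% and 32.7%. PSME3, a proteasome activator of the nucleus, fell by 0.92 in DTP and by 1.43 at 24 hours on the log2 scale, with adjusted p of 8.68e-12 and 1.48e-14. LAP3, an aminopeptidase of the cytosol, fell by 0.99 at 24 hours (adjusted p = 8.35e-11) and was 1.47 ± 0.06 higher in DTP than at 24 hours (adjusted p = 1.5e-12). BLMH, another cytosolic peptidase, fell by 1.503 at 24 hours (adjusted p = 1.31e-12) and by 1.66 after carboplatin (adjusted p = 1.68e-12). After carboplatin 5 of the 24 were higher and 9 lower, beside 30.3% and 28.6% of all tested genes. With scaling to the spike-in 14 were higher and 1 lower, beside 58.7% and 6.7% of all genes tested under it. Under TSA 5 were higher and 10 lower in parental cells, beside 30.8% and 27.4% of all tested genes. In persisters 2 were higher and 6 lower, beside 25.6% and 30.7%. Scaling to the spike-in gave 1 and 0 there, beside 24.6% and 14.3%.

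Among 14 factors known at class I promoters, 5 were higher and 5 lower in DTP, and the same counts held at 24 hours. Of all tested genes 31% were higher and 27.8% lower in DTP, and 36.6% and 32.7% at 24 hours. IRF1, an interferon-induced factor that binds the ISRE, had 12.0 to 13.3 CPM in parental_DMSO, 40.3 to 41.4 CPM in DTP and 63.4 to 67.4 CPM at 24 hours. It rose in DTP by 1.70 ± 0.06 (adjusted p = 6.97e-13) and at 24 hours by 2.38 ± 0.06 (adjusted p = 5.21e-15).

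RFX5, a subunit of the complex that binds class I and class II promoters, had 34.0 to 34.2 CPM in parental_DMSO, 54.4 to 59.0 CPM in DTP and 95.4 to 98.5 CPM at 24 hours. It rose by 0.73 ± 0.05 and 1.503 ± 0.05, with adjusted p of 4.48e-09 and 1.85e-13. IRF2 followed the same order, with 13.4 to 14.6, 21.95 to 23.6 and 30.9 to 32.8 CPM. RFX5, IRF1 and IRF2 were each lower in DTP than at 24 hours (adjusted p from 2.14e-09 to 1.13e-05), and none of the 3 differences passed with scaling to the spike-in. After carboplatin IRF1 rose by 1.22 ± 0.06 and RFX5 by 1.01 ± 0.05. In the TSA interaction IRF2 had -1.31 ± 0.10 (adjusted p = 4.48e-08), and it passed with scaling to the spike-in too (-1.18, adjusted p = 0.00454). It rose under TSA in parental cells, to 19.5 to 22.5 CPM (0.58 ± 0.07, adjusted p = 1.75e-06), and fell in persisters, to 13.2 to 14.2 CPM (-0.73 ± 0.07, adjusted p = 1.27e-07).

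**Figure D5:**
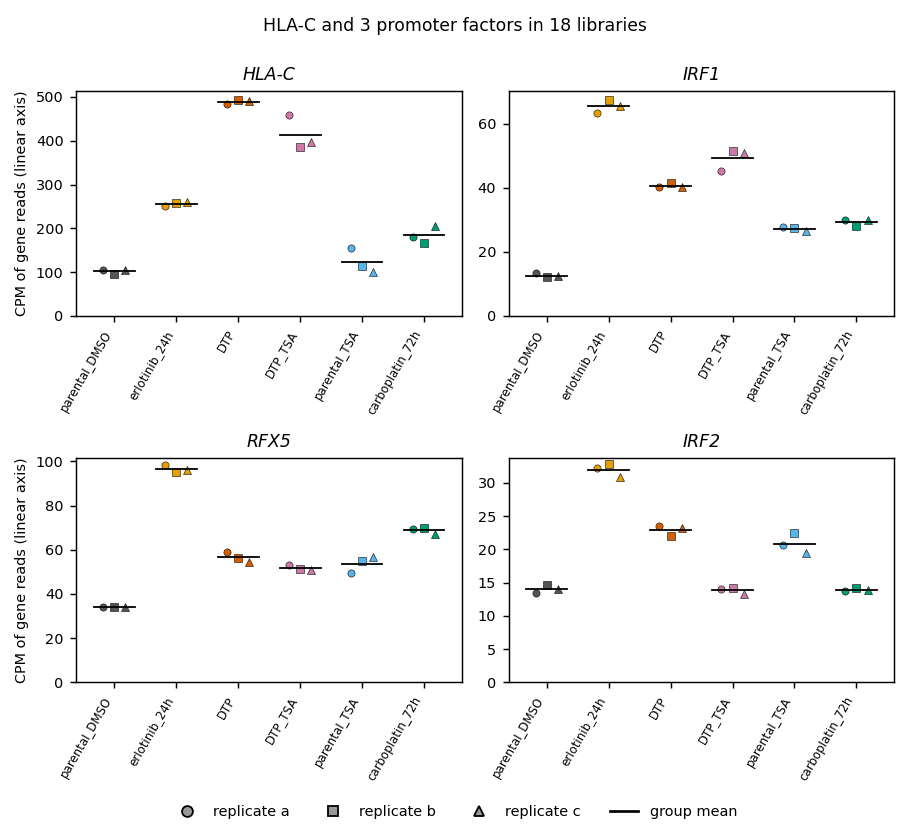
Levels of the heavy chain HLA-C and of the promoter factors IRF1, RFX5 and IRF2 in CPM of gene reads on linear axes that start at 0 (y) in the 6 groups (x), with 1 point per library and a bar for the group mean. HLA-C is highest in DTP, at 483 to 493 CPM, while IRF1, RFX5 and IRF2 are highest after 24 hours of erlotinib.

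Of 7 tested genes of class II presentation, 5 were higher in DTP and none was lower, beside 31% and 27.8% of all tested genes. HLA-DRB1 had at most 15 reads in a library. CD74, the invariant chain that guides class II molecules, had a mean of 0.0633 CPM in parental_DMSO, 0.476 at 24 hours and 5.27 in DTP (6.35 ± 0.31 in DTP, adjusted p = 1.63e-11). HLA-DMA, which loads class II peptides, had 0.365, 4.99 and 2.99 CPM (3.03 ± 0.24 in DTP, adjusted p = 9.06e-09). MR1, a class I-like molecule that presents vitamin B metabolites, had means of 6.95, 35.8 and 19.7 CPM in the same order, and 34.7 CPM after carboplatin. It rose in all 3 drug groups, by 2.37 ± 0.08 at 24 hours (adjusted p = 1.01e-13) and by 2.32 ± 0.08 after carboplatin (adjusted p = 5.92e-13).

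Genes that overlap the 10 on the chromosome were checked, because the strand used in counting is not given in the sources used here and reads in an overlap cannot be assigned without it. PSMB8-AS1, which overlaps TAP1 and PSMB8, had a mean of 1.28 CPM in parental_DMSO, 4.06 in DTP and 7.42 at 24 hours (1.66 ± 0.17 in DTP, adjusted p = 1.73e-07). HLA-F-AS1, which overlaps HLA-F, had a mean of 0.243 CPM in parental_DMSO, 1.14 at 24 hours (2.22 ± 0.72, adjusted p = 0.012) and 1.83 in parental_TSA (2.90 ± 0.73, adjusted p = 0.00263), where HLA-F had a mean of 4.07 CPM against 1.80. RGL2, which overlaps TAPBP, had 26.3, 49.7 and 111 CPM and rose in DTP (0.92 ± 0.07, adjusted p = 2.88e-09), at 24 hours (2.08 ± 0.07, adjusted p = 4.54e-14) and after carboplatin (1.38 ± 0.07, adjusted p = 2.39e-11). There TAPBP did not rise with TMM scaling (-0.09, adjusted p = 0.284), but it did with scaling to the spike-in (0.55, adjusted p = 0.00199). CAST, which overlaps ERAP1, gave -0.04 ± 0.06 in DTP (adjusted p = 0.653). At 24 hours CAST rose from a mean of 287 to 464 CPM (0.69 ± 0.06, adjusted p = 3.3e-08). It also rose under TSA in persisters (0.35 ± 0.06, adjusted p = 0.000158). After carboplatin and under TSA in parental cells it did not pass (adjusted p = 0.119 and 0.0675). ERAP2, which also overlaps ERAP1 and is a peptidase of the same kind, had 59.6, 148 and 150.3 CPM, and fell under TSA in persisters (-0.38 ± 0.10, adjusted p = 0.00417). The part of these genes in the values above was not tested.

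Markers of other cell types changed level too. CD14 and ITGAM, both myeloid markers, are named here because their values were seen to differ. CD14 had 0 to 3 reads in parental_DMSO and 58 to 70 in DTP. ITGAM had 4.44 to 5.17 CPM in parental_DMSO, 15.1 to 15.4 in DTP and 15.4 to 17.3 at 24 hours. CD68, which made up most of the sum, went from 29.7 to 32.3 CPM in parental_DMSO to 25.5 to 26.3 in DTP, lower by -0.28 ± 0.07 (adjusted p = 0.0022). Of 6 tested blood cell markers 3 were higher and 1 was lower in DTP, beside 31% and 27.8% of all tested genes. At 24 hours 5 were higher and none lower, beside 36.6% and 32.7%. The 7 fibroblast markers summed to 4.70 to 4.75 CPM in parental_DMSO and 24.3 to 28.3 in DTP, led by COL1A1, and the 6 endothelial markers to 17.5 to 18.4 CPM and 35.2 to 36.1, with 113 to 118 CPM at 24 hours. Of 4 tested endothelial markers 3 were higher and 1 was lower in DTP, beside 31% and 27.8% of all tested genes. The endothelial sum was led by PECAM1 in parental_DMSO (mean 9.27 CPM) and by CDH5 in DTP (mean 31.2 CPM). In bulk RNA a change in the share of cells cannot be told apart from a change per cell, and the part of these markers in the results was not tested.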

How the data were processed

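PolyA-selected RNA of 18 PC9 libraries was quantified by the authors with Salmon, per the submitters' processing notes, and the deposited table holds their expected counts per gene. For the genome build, annotation, strand setting and Salmon version: not given in the sources used here. Gene symbols matched 27814 of 30727 identifiers, and 0.247% of gene reads fell on genes without one. Of the columns the authors deposited, 3 matched no sample and were not used, nor were the tables of repeats.

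Expected counts were rounded. In R 4.3.3, edgeR 4.0.16 was fitted to all 18 libraries with 1 term per group, TMM scaling, its default filter on low counts (17641 genes kept) and the quasi-likelihood test. P-values were adjusted by the Benjamini-Hochberg method over all genes tested in a contrast, with a threshold of 0.05. The fit had 12 residual degrees of freedom. Every adjusted p in the text is from edgeR unless another tool is named. The test was checked on simulated counts. Ratios of subunits were compared by a 2-sided exact permutation test. Alternatives were DESeq2 1.42.0, its size factors in edgeR, other filters, the replicate letter as a block, fits of the compared groups alone, library sizes from spike-in reads (without DTP_TSA replicate a), both TSA replicates a left out, and each library left out in turn.

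Read depths are given with the results, and intervals cover no error beyond the spread between libraries. The labels do not say that the letters a, b and c pair the libraries. Of 45 pairs with the same letter, 0 had a correlation of deviations over 0.1, which cannot exclude a pairing. The genes and lists were chosen with earlier results of these data known. All 10 genes are named in every comparison, with up to 4 genes of each other list with the smallest p, PSMB5, PSMB6 and PSMB7, and the 10 genes most like the mean of the 10. Some genes that this rule names are not reported here. Promoter sequences are RefSeq's, on GRCh38.p14, scanned with Python 3.11.15, and figures were drawn with matplotlib 3.10.9.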

Additional observations from a re-analysis of the deposited data

Results flagged for a closer look

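The effect of TSA differed between persisters and parental cells for 8 of the 10 genes, by the interaction test in edgeR with 3 libraries per group. Over all tested genes 23% passed with a negative and 15.3% with a positive value, and 30.5% and 21.2% without both TSA replicates a. The difference (persister effect minus parental effect, log2) was -1.90 for PSMB9, -1.52 for HLA-F, -0.998 for TAP1, -0.80 for PSMB10, -0.54 for PSMB8, -0.44 for B2M, -0.41 for TAPBP and 0.66 for TAP2. Adjusted p ranged from 1.3e-06 for PSMB9 to 0.0398 for PSMB10. The call of PSMB10 was lost without any 1 of 8 libraries (parental_DMSO a, b or c, DTP b or c, DTP_TSA a, b or c; adjusted p from 0.0504 to 0.089), with DESeq2's size factors (0.0597), with the filter of 1 CPM (0.0583) and in a fit of the compared groups alone (0.0924). ERAP1 (0.40, adjusted p = 0.0699) and NLRC5 (-0.01, adjusted p = 0.975) did not pass. Without replicate a of both TSA groups the values were -1.73 for PSMB9, -1.35 for HLA-F, -0.85 for TAP1, -0.37 for PSMB10, -0.46 for PSMB8, -0.25 for B2M, -0.33 for TAPBP and 0.62 for TAP2, and all 8 passed, as did ERAP1 (0.28, adjusted p = 0.00191) and NLRC5 (-0.34, adjusted p = 0.00339). ERAP1 also passed with DESeq2 (0.46, adjusted p = 0.0151), with its size factors (0.028), with the filter of 1 CPM (0.0208) and without DTP_TSA replicate a (0.0408) or parental_TSA replicate c (0.0102). With scaling to the spike-in, PSMB9 (-1.77), HLA-F (-1.33) and TAP1 (-0.73) passed and the other 5 did not.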

How the results depend on the processing

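The number of the 10 genes past the threshold stayed within 1.5 times its value in each of 26 alternative settings for all 7 comparisons, except with scaling to the spike-in, where it fell from 7 to 2 for TSA in persisters and from 8 to 3 for the TSA interaction. With each library left out in turn the counts ranged from 9 to 9 in DTP, 10 to 10 at 24 hours, 7 to 8 after carboplatin, 5 to 7 under TSA in parental cells, 5 to 8 under TSA in persisters, 7 to 9 for DTP against 24 hours and 7 to 9 for the interaction. The replicate block gave 9, 10, 8, 6, 7, 8 and 8 genes in the same order, the counts without the block. Over the 10 genes, 7 comparisons and 26 settings, 1739 of 1820 values stayed on their side of the threshold, 36 of them with a change of sign but past the threshold in neither fit. A further 47 lost and 27 gained a call, and 7 that were past the threshold in at least 1 fit changed sign. With scaling to the spike-in these 7 included TAP2 (0.42), TAPBP (0.55), PSMB10 (0.10) and ERAP1 (0.0901) after carboplatin, TAP2 under TSA in persisters (0.0066) and PSMB8 in DTP against 24 hours (0.20). Without both TSA replicates a it was PSMB8 under TSA in parental cells (-0.13). The cause was not tested. Adding 1 CPM to both genes moved the log2 ratio of PSMB9 to PSMB6, against parental_DMSO, from 4.401 to 3.78 in DTP, from 3.83 to 3.24 at 24 hours, from 0.39 to 0.22 after carboplatin and from 1.71 to 1.25 under TSA, because the added value is large beside PSMB9 in parental_DMSO. Over all genes, scaling to the spike-in gave 10618 higher and 1213 lower after carboplatin (5340 and 5046 with TMM), 4665 and 7207 at 24 hours (6457 and 5776), 5631 and 3224 in DTP (5471 and 4911), 4446 and 2582 under TSA in persisters (4508 and 5407) and 8502 and 2030 for DTP against 24 hours (5382 and 4377).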
